A study of Mus musculus with 6 samples.

Results

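The 32 genes described here encode the heat shock chaperones of the cytosol and the mitochondrion, the co-chaperones that work with them, and Hsf1, the transcription factor that induces many of them. They were chosen by name: a member was represented by the Agilent probe under its gene name with the highest mean deposited value over the 6 arrays. All 32 of 32 members had a probe, among 27376 genes with one, and all 32 were among the 18903 genes that were bright enough to test. The study measured gene expression in livers of male BALB/c mice that were 6 weeks old at the start. One group of 3 mice drank water with 100 µg/L microcystin-LR (MC-LR) for 12 months, and a control group of 3 mice drank normal sterile water for the same time. MC-LR is a cyclic peptide of bloom-forming cyanobacteria that is taken up by hepatocytes and blocks serine/threonine protein phosphatases. Both groups were otherwise described alike, and no allele or transgene is named in the labels. The labels call the livers independent mice, and each was hybridised to its own single-colour array. They are called control 1 to control 3 and MC-LR 1 to MC-LR 3 here, after the numbers in the sample titles, which carry no order.

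Heat shock proteins bind unfolded stretches of other proteins and help them fold, refold, travel or be degraded. Members of the HSP70 family hold and release clients in an ATP cycle that J proteins start and that BAG and HSP110 proteins end, HSP90 matures kinases and receptors with its own co-chaperones, and small heat shock proteins hold clients until the HSP70 system takes over. In a resting liver cell HSF1 is held inactive by chaperones. When unfolded proteins occupy those chaperones, or when temperature rises, HSF1 assembles into trimers and binds heat shock elements, inverted repeats of the bases GAA. Hspa1a and Hspa1b, the stress-induced HSP70 genes, respond most steeply, whereas Hspa8 and Hsp90ab1 are made constitutively.

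The promoters of 7 members are shown because they belong to the members with the widest spread among livers or hold the clearest heat shock elements. Windows of 250 bases before to 50 bases after the start of transcription came from RefSeq (GRCm38.p6) and covered 25 of the 32 members with 34 windows. Not among the 25 were Cryab, Hsf1, Hsp90aa1, Hsp90ab1, Hspa8, Hspa9 and St13. Each printed sequence has 280 bases on the gene's strand and stops 30 bases after the start. Capitals mark every match to GAANNTTC or TTCNNGAA, that is, 2 adjoining inverted units, with overlapping matches joined. Both letter strings read the same on both strands.
Hspa1a promoter: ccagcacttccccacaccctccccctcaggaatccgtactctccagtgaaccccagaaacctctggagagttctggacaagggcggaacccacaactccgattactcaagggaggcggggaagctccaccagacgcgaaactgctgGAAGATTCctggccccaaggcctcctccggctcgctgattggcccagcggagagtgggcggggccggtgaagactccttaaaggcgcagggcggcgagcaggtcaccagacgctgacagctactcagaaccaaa
Hspa1b promoter: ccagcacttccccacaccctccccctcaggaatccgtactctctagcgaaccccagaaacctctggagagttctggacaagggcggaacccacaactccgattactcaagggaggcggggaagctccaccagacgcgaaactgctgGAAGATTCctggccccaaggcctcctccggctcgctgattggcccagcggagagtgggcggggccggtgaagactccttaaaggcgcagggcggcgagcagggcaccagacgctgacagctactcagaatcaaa
Hspb1 promoter: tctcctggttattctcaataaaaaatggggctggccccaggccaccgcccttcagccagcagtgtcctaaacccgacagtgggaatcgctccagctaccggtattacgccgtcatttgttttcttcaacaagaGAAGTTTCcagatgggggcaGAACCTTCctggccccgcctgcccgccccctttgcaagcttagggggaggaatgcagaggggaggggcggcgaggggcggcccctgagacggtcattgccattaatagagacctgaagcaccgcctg
Hsph1 promoter: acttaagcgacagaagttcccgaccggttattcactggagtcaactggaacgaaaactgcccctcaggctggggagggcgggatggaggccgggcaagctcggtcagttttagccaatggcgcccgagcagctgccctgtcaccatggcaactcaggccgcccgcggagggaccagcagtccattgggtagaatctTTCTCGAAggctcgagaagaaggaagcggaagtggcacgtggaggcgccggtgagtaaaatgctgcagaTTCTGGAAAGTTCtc
Chordc1 promoter: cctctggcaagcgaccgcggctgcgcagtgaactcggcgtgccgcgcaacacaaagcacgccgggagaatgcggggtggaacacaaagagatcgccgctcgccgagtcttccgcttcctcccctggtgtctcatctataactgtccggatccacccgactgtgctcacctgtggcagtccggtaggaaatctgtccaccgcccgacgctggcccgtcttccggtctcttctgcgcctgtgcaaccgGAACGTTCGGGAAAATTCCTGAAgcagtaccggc
Hspe1 promoter: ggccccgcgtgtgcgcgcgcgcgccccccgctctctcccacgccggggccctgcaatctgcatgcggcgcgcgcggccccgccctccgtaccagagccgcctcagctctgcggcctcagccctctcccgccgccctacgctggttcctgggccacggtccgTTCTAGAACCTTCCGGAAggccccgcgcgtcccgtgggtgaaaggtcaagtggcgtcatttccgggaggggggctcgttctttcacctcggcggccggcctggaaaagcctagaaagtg
Dnajb6 promoter: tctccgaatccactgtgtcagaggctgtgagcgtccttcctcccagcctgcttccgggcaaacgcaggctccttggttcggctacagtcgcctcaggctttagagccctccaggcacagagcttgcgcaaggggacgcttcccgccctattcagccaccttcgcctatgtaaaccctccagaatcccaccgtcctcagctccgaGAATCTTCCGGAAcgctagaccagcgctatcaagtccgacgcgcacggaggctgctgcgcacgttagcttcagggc

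The Hspa1a window lies at chr17:34972127-34972406 and that of Hspa1b at chr17:34959209-34959488, both on the minus strand. These 2 promoters were identical at 276 of 280 bases (98.6%), with a longest identical stretch of 201 bases, and both hold GAAGATTC at positions −104 to −97 relative to the start. Hspb1 (chr5:135887669-135887948, plus strand) holds separate matches that begin at positions −117 and −97. The Hsph1 window (chr5:149636286-149636565, minus strand) holds a match that begins at position −54 and a run of 13 bases that begins at position 16, after the start. In Chordc1 (chr9:18292017-18292296, plus strand), adjoining units form a run of 23 bases that begins at position −4. The Hspe1 window (chr1:55087898-55088177, plus strand) holds a run of 18 bases that begins at position −89. It overlaps a window of Hspd1, whose start faces it on the other strand, over 285 of 300 bases, so these 2 genes share that run. Dnajb6 (chr5:29735648-29735927, plus strand) holds a run of 13 bases that begins at position −46.

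A match to 3 adjoining units (GAANNTTCNNGAA or TTCNNGAANNTTC, searched on both strands, each of which contains the 2-unit motif) was found for 5 of the 25 members: Chordc1, Dnajb6, Hspd1, Hspe1 and Hsph1. By window, 7 of 34 member windows (20.6%) held it, against 0.603% of 32851 RefSeq windows. The 2-unit motif was found for 13 of the 25 members, in 15 of 34 windows (44.1%), against 15.1% of all windows. Windows of the same gene can overlap, and Hspd1 and Hspe1 share a run, so some stretches are counted more than once. These matches describe letters in a window only. Over the 6 arrays, the 5 members with 3 units spanned a median of 0.92 on the log2 scale (0.69 to 3.92). The 8 members with 2 units only spanned a median of 2.09 (0.67 to 7.31), and the 12 with neither a median of 0.41 (0.21 to 2.93). The 7 members without a window spanned a median of 0.55 (0.2 to 2.32). Hspa1a and Hspa1b, whose promoters are near-identical, both count among those with 2 units only. A link between motif and span was not tested.

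The level of a gene is the brightness of a probe of 60 bases, so 4 probes are shown for members that the results turn on: Hspa1b and Hspb1, which ranged widely, Hspa8, the constitutive HSP70, and Trap1, the member with the smallest p.
Hspa1b probe: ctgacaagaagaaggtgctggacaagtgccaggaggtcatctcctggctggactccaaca
Hspb1 probe: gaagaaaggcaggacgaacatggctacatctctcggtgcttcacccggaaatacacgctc
Hspa8 probe: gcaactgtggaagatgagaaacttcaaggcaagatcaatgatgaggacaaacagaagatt
Trap1 probe: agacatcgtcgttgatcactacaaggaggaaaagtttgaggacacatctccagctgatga

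The files place these probes, in mm9 coordinates, at chr17:35094200-35094259, chr5:136364927-136365114, chr9:40612674-40612733 and chr16:4044692-4045495. The listed spans of Hspb1 (188 bases) and Trap1 (804 bases) are longer than the probe. The near-identical paralogs Hspa1a and Hspa1b had 2 probes each. How far their probes read each other's transcript was not tested. They are counted as 2 members in all tallies and ranks, although their values may not be independent.

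Spots well above background made up 64.9% to 73.7% of an array, 0 spots were saturated, and r across probes was 0.982 to 0.994 for pairs of arrays. Precision is limited by having 3 arrays a group. Slide 1 carried controls 1 and 2, and slide 2 carried control 3 with all 3 MC-LR arrays. Of 12 hepatocyte markers, 11 were tested, with a summed level of 19.37 to 19.61 in controls and 19.60 to 19.71 with MC-LR (log2 of summed signal). The tissue is bulk liver, in which fewer cells of a type and less RNA per cell cannot be told apart.

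The comparison of MC-LR with control livers asked which genes differ after long exposure. None of the chaperone members passed it: 0 of 32 had an adjusted p under 0.05 by limma, where 3 of 18903 genes (0.0159%) did. At an unadjusted p under 0.05 there was 1 member, Trap1, which was higher with MC-LR, against 12.9% of all genes (7.51% higher and 5.37% lower). The 3 arrays of the 2 groups did not overlap for 5 members (Hsf1, Hspa9, Hspe1, Trap1 and Dnajb6), each with the higher values in MC-LR livers. Among all genes, 20.5% did not overlap, 11.3% with MC-LR higher and 9.23% with MC-LR lower. The median difference over the members, MC-LR minus control, was 0.04 on the log2 scale, against −0.01 over all genes tested. In all, 13 members lay below 0 and 19 above, and 51.4% of all genes lay below 0.

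**Figure D1:**
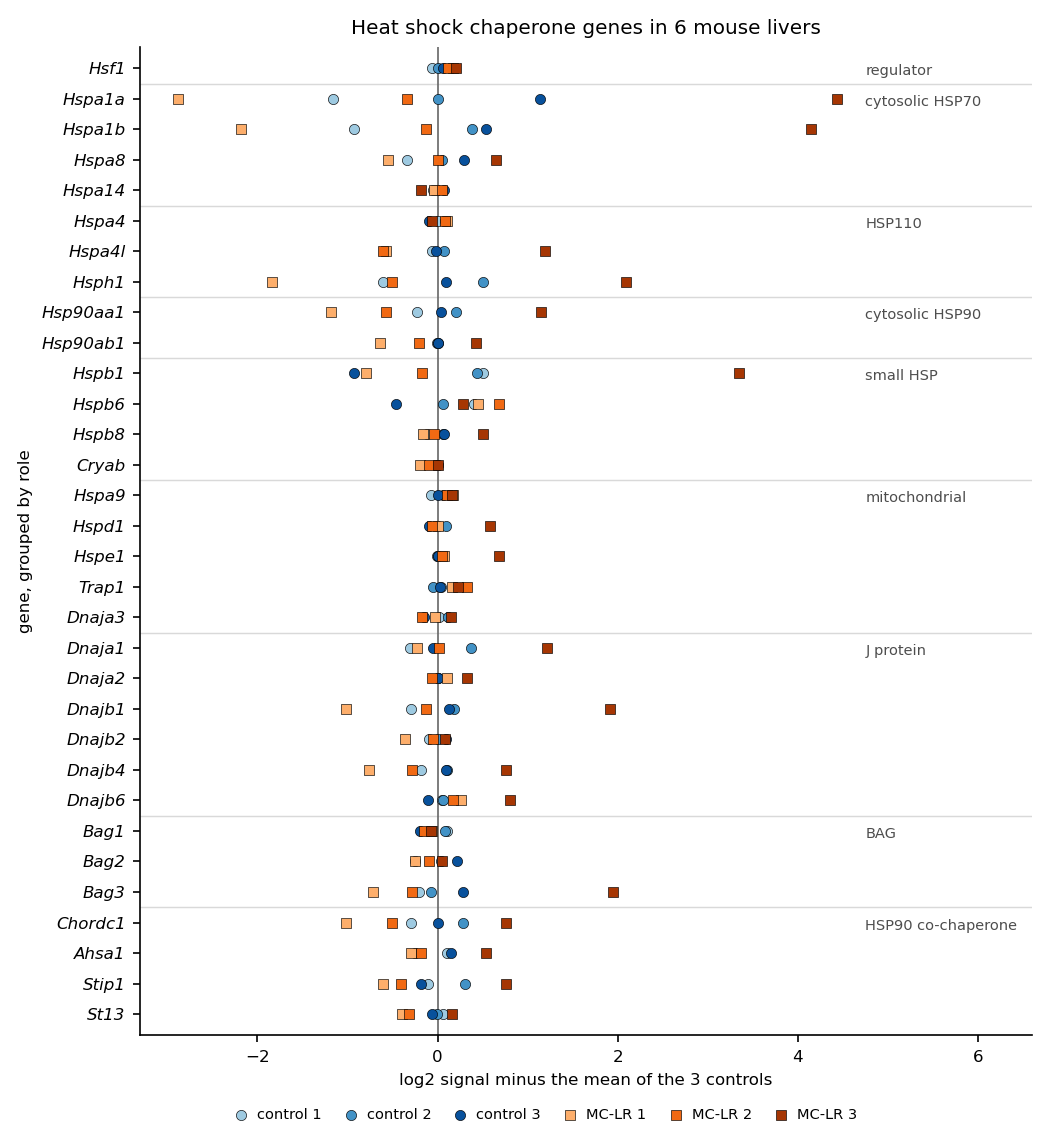
All 32 members are grouped by role (rows), with the normalized log2 signal of each liver minus the mean of the 3 controls on the horizontal axis (circles, controls; squares, MC-LR livers; no error bars, each point is 1 array). MC-LR 3 lies to the right of the other livers for 23 of 32 members and MC-LR 1 to the left for 17, with the widest span, 7.31, for Hspa1a.

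The members varied widely among the 3 exposed livers, with MC-LR 3 and MC-LR 1 at opposite ends. MC-LR 3 was the highest of the 6 arrays for 23 of 32 members, where it was the highest for 18.8% of all genes. MC-LR 1 was the lowest for 17 of 32 members, against 15.1% of all genes. The MC-LR 3 value lay above all 3 controls for 25 members (29.2% of all genes), and that of MC-LR 1 lay below all 3 controls for 18 members (26.9% of all genes). In MC-LR 2, 6 members lay above and 11 below all controls, against 25.2% and 25.6% of all genes. For Hspa1a, Hspa1b, Hsph1, Dnajb1 and other members, exposed livers lay on both sides of all controls.

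Hsf1 encodes the master regulator of the heat shock response, which acts mainly through the activity of its protein. Its signal was 12.75, 12.82 and 12.87 in controls 1 to 3 and 12.98, 12.93 and 13.02 in MC-LR 1 to 3 (normalized log2 signal, as are all levels below). The groups did not overlap, and the difference was 0.17 ± 0.09 (SE of the fit, n = 3 per group; adjusted p = 0.487, limma). The other probes of Hsf1 differed the opposite way, by −0.20 and −0.07, and with the mean of its 3 probes the difference was −0.03. The probe used carries a different accession from the other pair.

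Hspa1a and Hspa1b encode the stress-induced cytosolic HSP70. Hspa1a signal was 8.23, 9.39 and 10.53 in the controls and 6.51, 9.05 and 13.83 in MC-LR 1, 2 and 3. Hspa1b signal was 6.37, 7.68 and 7.84 in the controls and 5.12, 7.17 and 11.45 in the MC-LR livers. For both genes MC-LR 1 lay below every control, MC-LR 2 within the controls and MC-LR 3 far above them, so that the exposed livers enclosed the controls. Hspa1a in MC-LR 3 was 21.7-fold above the control mean, and in MC-LR 1 it was 7.33-fold below. For Hspa1b these values were 17.8-fold above and 4.53-fold below. The span from the lowest to the highest liver was 159-fold for Hspa1a and 80.8-fold for Hspa1b. Controls also differed in Hspa1a (SD 1.15, against 3.71 in MC-LR livers). The group differences were 0.41 ± 1.83 for Hspa1a (adjusted p = 0.943, limma) and 0.62 ± 1.57 for Hspa1b (adjusted p = 0.897, limma), each smaller than its standard error. The second probe of Hspa1a gave 7.84, 9.05 and 10.33 in the controls and 5.92, 8.79 and 13.58 in the MC-LR livers, the same pattern. The second Hspa1b probe differed by 0.66 and was well above background on only 2 of 3 arrays in each group.

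Hspa8, the constitutive cytosolic HSP70, read 14.72, 15.11 and 15.35 in the controls and 14.51, 15.06 and 15.71 in the MC-LR livers. It had the same lowest and highest liver as Hspa1a over a far smaller span, 2.29-fold, and its difference was 0.04 ± 0.33 (adjusted p = 0.976, limma). Its other probe differed by −0.06. Hspa14, an HSP70-like protein of the ribosome, spanned only 0.24 on the log2 scale and was lowest in MC-LR 3.

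HSP110 proteins exchange the nucleotide of HSP70. Hsph1, a stress-induced member named after its values were seen, read 11.87, 12.98 and 12.56 in the controls and 10.63, 11.96 and 14.56 in the MC-LR livers. MC-LR 3 was 4.25-fold above the control mean and MC-LR 1 3.57-fold below it, the pattern of Hspa1a, and the group means of 12.47 and 12.38 differed by −0.08 ± 0.98. Hspa4l, also named after its values were seen, gave 9.70, 9.83 and 9.74 in the controls and 9.19, 9.16 and 10.95 in the MC-LR livers. Here MC-LR 1 and MC-LR 2 both lay below every control and MC-LR 3 above, and the difference of the means was 0.01 ± 0.49. All 4 probes of Hspa4l were highest in MC-LR 3, and the other probes differed by 0.01, −0.04 and 0.13. The probe used for Hspa4, the constitutive HSP110, spanned 0.21, and its 4 probes disagreed. Another Hspa4 probe read 11.36, 11.73 and 11.12 in the controls and 10.85, 10.59 and 11.54 in the MC-LR livers, with MC-LR 1 and MC-LR 2 below all controls. Its difference was −0.41, against 0.04 for the probe used, 0.20 and −0.02 for the others and −0.05 for the mean of the 4.

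Both cytosolic HSP90 genes had MC-LR 1 as the lowest and MC-LR 3 as the highest liver. The stress-responsive Hsp90aa1, named after its values were seen, read 13.75, 14.18 and 14.02 in the controls and 12.80, 13.41 and 15.13 in the MC-LR livers. Hsp90ab1, the constitutive form, read 13.97, 13.99 and 13.99 in the controls and 13.34, 13.77 and 14.41 in the MC-LR livers. In both, MC-LR 1 and MC-LR 2 lay below and MC-LR 3 above all controls. The control SD of Hsp90ab1 was 0.01, against 0.54 in the MC-LR livers. Differences of the means were −0.20 ± 0.58 for Hsp90aa1 and −0.14 ± 0.27 for Hsp90ab1 (adjusted p = 0.909 and 0.849, limma). The second probe of Hsp90ab1 differed by −0.04.

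Small heat shock proteins hold unfolding clients without ATP. Hspb1, the stress-induced HSP27 homologue, read 11.60, 11.54 and 10.17 in the controls and 10.31, 10.93 and 14.45 in the MC-LR livers. Only MC-LR 3 lay outside the range of the controls, 10.2-fold above their mean, and the difference of 0.79 ± 1.12 was the largest among the members (adjusted p = 0.797, limma). Hspb6 read 4.69, 4.35 and 3.83 in the controls and 4.74, 4.97 and 4.57 in the MC-LR livers, with MC-LR 3 the lowest of the exposed livers and inside the control range. Its difference was 0.47 ± 0.24 (adjusted p = 0.460, limma), on slide 2 alone it was 0.93, and with normexp background correction it was 0.09. Hspb8, a partner of BAG3, reached 13.54 in MC-LR 3 against 12.88 to 13.11 in the other livers. Cryab, alpha-B crystallin, spanned 0.20 with the probe used (difference −0.10) and 0.41 with the other (difference −0.02).

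**Figure D2:**
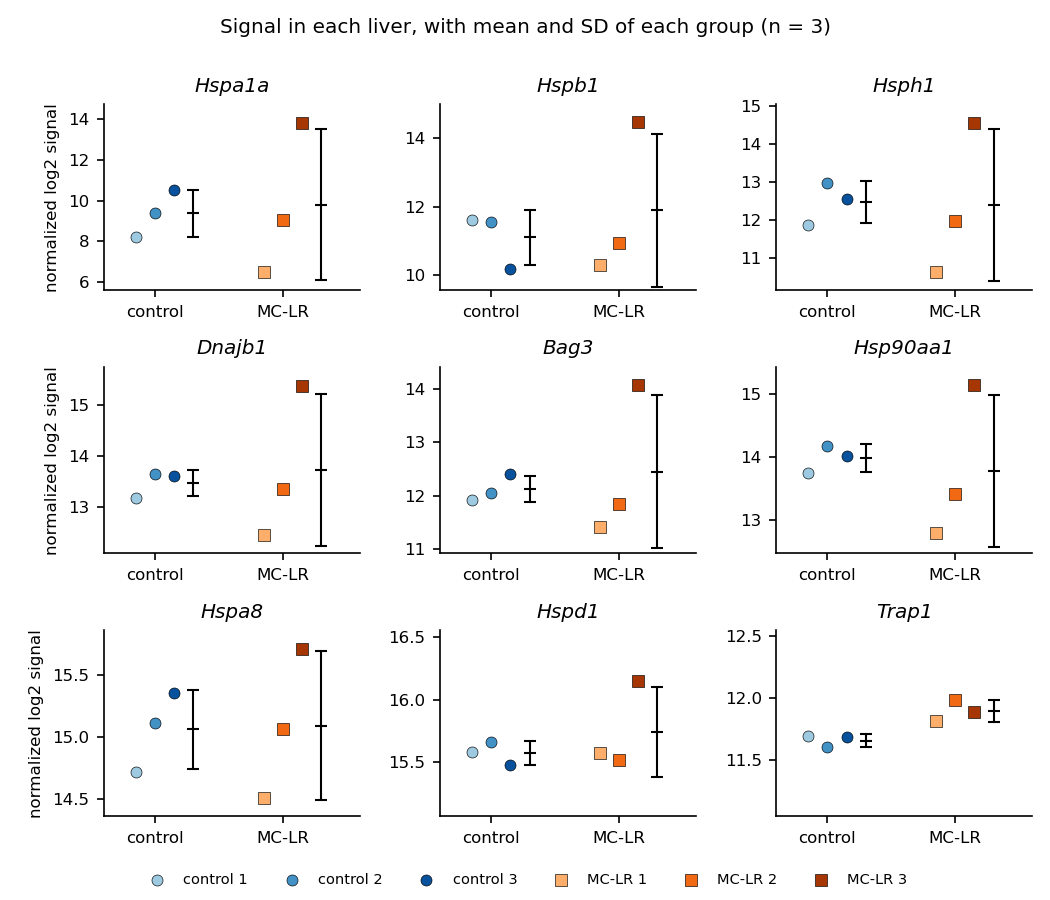
Normalized log2 signal of 9 members in each control (circles) and MC-LR (squares) liver, with the mean and SD of each group beside the points (n = 3); the vertical axes differ between panels and do not start at 0. MC-LR 3 is the highest liver in all panels but that of Trap1, and the MC-LR livers span 6.51 to 13.83 for Hspa1a, while the Trap1 values of the groups do not overlap.

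In the mitochondrion, Hspd1 and Hspe1 encode the barrel and the lid of the HSP60 chaperonin. Hspd1 read 15.58, 15.66 and 15.47 in the controls and 15.57, 15.51 and 16.15 in the MC-LR livers, with MC-LR 3 alone outside the control range. Hspe1 gave 14.79, 14.80 and 14.81 in the controls and 14.87, 14.85 and 15.48 in the MC-LR livers. MC-LR 3 lay 0.58 above the control mean for Hspd1 and 0.68 for Hspe1 on the log2 scale, while MC-LR 1 differed from it by 0.00 and 0.06. Both genes had the same highest liver as Hspa1a, and neither had its lowest one. Their differences were 0.18 ± 0.19 and 0.26 ± 0.19 (adjusted p = 0.729 and 0.588, limma), and without MC-LR 3 they were −0.03 and 0.06. The other Hspd1 probe differed by 0.28 and was also highest in MC-LR 3, at 12.91.

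MC-LR 3 was not the highest liver with the probes used for Hspa9, the mitochondrial HSP70, and Trap1, the mitochondrial HSP90. Hspa9 read 13.68, 13.81 and 13.76 in the controls and 13.92, 13.85 and 13.91 in the MC-LR livers, apart by a narrow margin (0.15 ± 0.09; adjusted p = 0.527, limma). Its other probe differed by 0.08, and there the groups overlapped. Trap1 read 11.70, 11.61 and 11.69 in the controls and 11.82, 11.99 and 11.89 in the MC-LR livers. Every exposed liver lay above every control, by 0.23 ± 0.09 in the mean, which gave an unadjusted p of 0.0472 and an adjusted p of 0.385 by limma. Its difference stayed between 0.19 and 0.31 over the alternative settings, with adjusted p from 0.247 to 0.699, and its unadjusted p was over 0.05 with slide or replicate number as a block and without any 1 array. Dnaja3, the mitochondrial J protein, spanned 0.33 and differed by −0.01, and by 0.12 with its other probe. Of the genes tested, Cep110 (r = 0.997), Zc3h4 (0.993), Pdcd11 (0.992), Slc23a3 (0.986) and Ggt5 (0.982) had values most like those of Trap1 over the 6 arrays, as a description.

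J proteins start the ATP cycle of HSP70. Dnajb1, the stress-induced partner of HSP70, named after its values were seen, read 13.18, 13.66 and 13.61 in the controls and 12.46, 13.35 and 15.39 in the MC-LR livers. It was 3.76-fold above the control mean in MC-LR 3 and 2.03-fold below it in MC-LR 1, and its other probe, highest and lowest in the same livers, gave a difference of 0.39 against 0.25 for the probe used. Dnaja1, a general cytosolic J protein, read 12.99, 13.67 and 13.25 in the controls and 13.07, 13.32 and 14.51 in the MC-LR livers. MC-LR 3 alone lay outside the control range, and all 3 Dnaja1 probes gave a higher mean with MC-LR (0.25, 0.33 and 0.48). Dnajb6, which keeps aggregation-prone proteins soluble, read 10.46, 10.47 and 10.30 in the controls and 10.67, 10.58 and 11.22 in the MC-LR livers. Its groups did not overlap, with a difference of 0.42 ± 0.19 (adjusted p = 0.417, limma). Its other probes differed by 0.56 and 0.42 in the same direction. Tested as its own feature, the probe with 0.56 had an unadjusted p of 0.00609 and an adjusted p of 0.248 by limma. Dnajb4 spanned 1.52 from MC-LR 1 to MC-LR 3, and its 4 probes disagreed in direction (−0.10 for the probe used, 0.18, 0.32 and 0.48 for the others). Dnaja2 and Dnajb2 spanned 0.38 and 0.45.

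BAG proteins release clients from HSP70. Bag3, the stress-induced member that hands HSP70 clients to autophagy, read 11.92, 12.06 and 12.41 in the controls and 11.41, 11.85 and 14.08 in the MC-LR livers. MC-LR 1 and MC-LR 2 lay below all controls, and MC-LR 3 was 3.87-fold above their mean, which left a difference of 0.32 ± 0.69 (adjusted p = 0.874, limma). Its other probe differed by 0.21, with the same livers highest and lowest. Bag1 and Bag2 spanned 0.30 and 0.46, and in neither was MC-LR 3 the highest liver.

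Chordc1, Ahsa1, Stip1 and St13 are grouped here as HSP90 co-chaperones, although St13 acts on HSP70. Each was highest in MC-LR 3 and lowest in MC-LR 1 with the probe used. Chordc1, which binds HSP90 through CHORD domains and is named after its values were seen, read 11.02, 11.59 and 11.31 in the controls and 10.29, 10.80 and 12.07 in the MC-LR livers, and its other probe had the same lowest and highest livers. Stip1, which bridges HSP70 and HSP90, spanned 1.38, and Ahsa1, which activates the HSP90 ATPase, spanned 0.85. The second Stip1 probe was well above background on 0 control arrays and 1 MC-LR array. St13, which stabilises HSP70 with bound client, spanned 0.55, and its other probes were highest in MC-LR 3 but not lowest in MC-LR 1. They differed by 0.18 and 0.04, against −0.18 for the probe used and 0.01 for the mean of the 3. With the probes used, differences of the group means in the 4 genes lay between −0.26 and 0.02, inside the spread of the exposed livers.

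Each array was then set against the mean of the other 5, gene by gene, in the same way for all 6 arrays. In MC-LR 3, Hspa1a (5.08) and Hspa1b (4.62) ranked 1 and 2 of 18903 genes for the distance above the other arrays, Hspb1 (3.54) ranked 4 and Hsph1 (2.56) ranked 10. In MC-LR 1, Hspa1a (−3.70) and Hspa1b (−2.98) ranked 1 and 2 for the distance below, and Hsph1 (−2.15) ranked 9. Among the 200 genes furthest above in each array, which are 1.06% of the genes tested, MC-LR 3 had 9 members and the other 5 arrays had 0. Among the 200 furthest below, MC-LR 1 had 8 members, control 1 had 2, control 3 had 1, and the remaining 3 arrays had 0. The other 5 arrays of MC-LR 1 include MC-LR 3 and the reverse, so the ranks and counts of these livers depend on each other. Against the control mean, MC-LR 1 lay at −2.87 for Hspa1a, −2.18 for Hspa1b and −1.83 for Hsph1. The members' median distance from the control mean was −0.28 in MC-LR 1, −0.11 in MC-LR 2 and 0.56 in MC-LR 3, where the median over all genes was between −0.01 and 0.00.

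**Figure D3:**
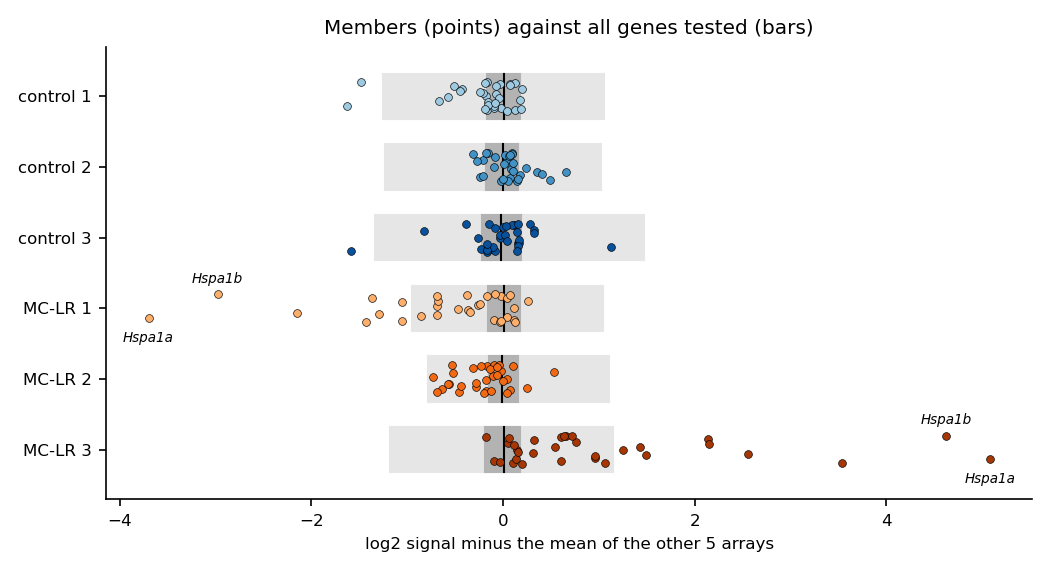
For each array (rows), points give the log2 signal of the 32 members minus the mean of the other 5 arrays, dark bars the 25th to 75th percentile of all 18903 genes, light bars their 1st to 99th percentile and black lines their median. Hspa1a and Hspa1b lie furthest out on both sides, at 5.08 and 4.62 in MC-LR 3 and at −3.70 and −2.98 in MC-LR 1, while most control points lie within the light bars.

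In numbers of genes, the span over the 6 arrays was at least 1 on the log2 scale for 15 of 32 members (46.9%), against 23.5% of all genes. Over the 3 controls alone, 4 members (12.5%) reached that span, close to the 12.0% of all genes. Over the 3 MC-LR livers, 14 members (43.8%) reached it, against 7.44% of all genes. The SD among MC-LR livers exceeded that among controls for 27 members (84.4%), against 44.0% of all genes. Of 29 further probes of the members, 24 were highest in MC-LR 3 and 15 lowest in MC-LR 1, and 16 had the same direction of the group difference as the probe used.

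The direction of the group comparison depended on single arrays. Without MC-LR 3, the median difference was −0.19, and 23 of 32 members lay below 0. Then 7 members had an unadjusted p under 0.05, all lower with MC-LR: Hspa4l, Hsp90aa1, St13, Chordc1, Hsp90ab1, Stip1 and Dnajb4. All 7 had MC-LR 3 as their highest liver, so leaving it out lowered their exposed mean. By limma 0 passed an adjusted p of 0.05 (lowest adjusted p = 0.277, for Hspa4l). In that fit 12.0% of all genes had an unadjusted p under 0.05, in either direction. Hspa1a then differed by −1.60, Hspa1b by −1.16 and Hspb1 by −0.49, each with the sign turned. Without MC-LR 1, the median was 0.23, 26 members lay above 0, and 0 had an unadjusted p under 0.05 or an adjusted one by limma. On slide 2 alone, where control 3 was the only control, the median was 0.06 and Hspa1a differed by −0.74, Hspa8 by −0.25 and Hspb1 by 1.72.

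**Figure D4:**
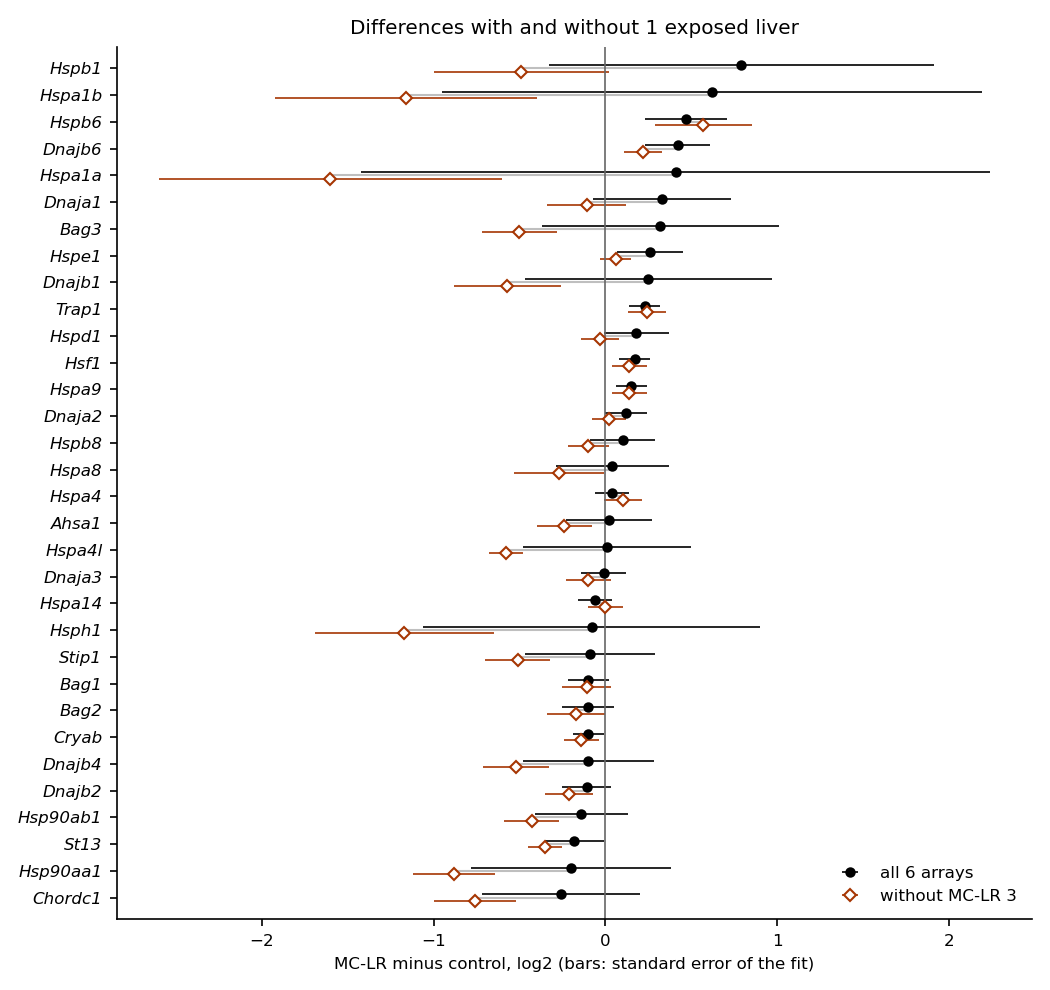
MC-LR minus control difference of the 32 members on the log2 scale, from all 6 arrays (filled circles) and without MC-LR 3 (open diamonds), with the standard error of each fit as bars. The median moves from 0.04 to −0.19, and Hspa1a moves from 0.41 to −1.60, while Trap1 moves from 0.23 to 0.24.

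Other chaperones and genes that work with them, called related chaperones here, were read from 4 lists. These were TRiC/CCT and prefoldin, other genes of the HSP70 system, other HSP90 co-chaperones and other mitochondrial proteostasis genes. The genes were not selected by compartment, except in the mitochondrial list. Of their 64 genes, 63 were tested, and 0 passed an adjusted p of 0.05 by limma. At an unadjusted p under 0.05, 4 were higher and 4 lower with MC-LR, against 7.51% and 5.37% of all genes, and their median difference was 0.02. A span of at least 1 over the 6 arrays was reached by 5 of 63, against 15 of 32 members and 23.5% of all genes. MC-LR 3 was the highest liver for 24 of the 63 (38.1%), against 18.8% of all genes. The smallest p belonged to Tomm40 (0.48), Clpx (−1.69) and Afg3l2 (0.32) among mitochondrial genes, Hsf2 (0.39) and Hspa13 (−0.49) in the HSP70 list, Aarsd1 (0.28) and Rpap3 (−0.51) among HSP90 co-chaperones and Vbp1 (−0.26) in the prefoldin list (log2 differences). Dnaja4, a J protein named after its values were seen, read 8.72, 8.95 and 8.93 in the controls and 8.68, 8.85 and 10.44 in the MC-LR livers, with MC-LR 3 alone above the controls.

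A list of chaperones of the endoplasmic reticulum was read for comparison. All 16 of 16 tested had a lower mean with MC-LR, with a median difference of −0.33, and for 0 of them was MC-LR 3 the highest liver. At an unadjusted p under 0.05, 6 were lower (5.37% of all genes), and 0 passed an adjusted p of 0.05 by limma (lowest adjusted p = 0.247, for Manf). Hspa5, their HSP70 and named after its values were seen, read 14.83, 15.15 and 15.27 in the controls and 14.25, 14.51 and 14.96 in the MC-LR livers, with MC-LR 1 and MC-LR 2 below all controls. The order of the exposed livers for Hspa5 was that of Hspa1a, over a span of 1.02.

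Genes that respond to temperature, stress or time of day were read in the same livers. Cirbp, a cold-induced RNA-binding protein, read 11.64, 10.70 and 11.34 in the controls and 12.02, 11.88 and 10.69 in the MC-LR livers. It was highest in MC-LR 1, and MC-LR 3 and control 2 were its lowest livers. Rbm3, the second such gene, read 11.90, 11.83 and 12.55 in the controls and 12.44, 12.84 and 12.39 in the MC-LR livers, and its lowest livers were controls 1 and 2. Egr1, an immediate early gene, was lowest in MC-LR 3 (7.31, against 9.27 to 10.51 in the other 5 livers), while the 9 immediate early genes had their highest value in MC-LR 3 for 1 gene only. Of 13 clock genes tested, 7 were higher and 2 lower with MC-LR at an unadjusted p under 0.05 (7.51% and 5.37% of all genes), and 0 passed the adjusted test by limma. Arntl read 10.39, 9.56 and 8.20 in the controls and 5.61, 5.84 and 7.65 in the MC-LR livers, and Dbp 9.86, 12.77 and 14.21 against 15.84, 15.81 and 14.27. MC-LR 3 was the exposed liver nearest to the control mean for 10 of the 13, Arntl and Dbp among them. Per2 was not one of these, with 6.80, 7.99 and 8.44 in the controls and 9.03, 9.23 and 10.33 in the MC-LR livers. Egr1, Arntl, Dbp and Per2 were named after their values were seen. The time of day at collection is not given in the sources used here, and the part of these genes in the members' values was not tested.

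**Figure D5:**
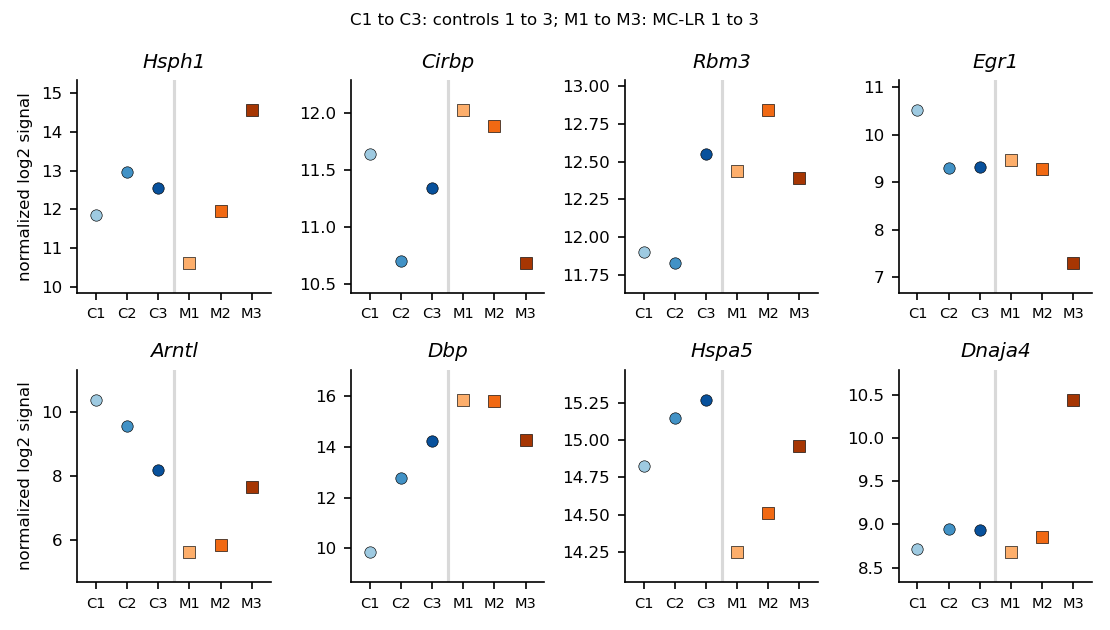
Normalized log2 signal of the member Hsph1 and of 7 genes outside the group in controls 1 to 3 (C1 to C3, circles) and MC-LR 1 to 3 (M1 to M3, squares), 1 point per array with no error bars and with vertical axes that differ and do not start at 0. Hsph1 and Dnaja4 are highest in MC-LR 3, where Egr1 (7.31) is lowest and Cirbp reads 10.69.

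Markers of other liver cell types were read in the same livers, as the log2 of summed signal. The lymphocyte and neutrophil list (8 of 8 tested) lay at 13.05 to 13.83 in controls, 12.39 in MC-LR 1, 13.39 in MC-LR 2 and 12.05 in MC-LR 3. The cholangiocyte list (5 of 6 tested) lay at 12.75 to 13.69 in controls and at 12.37, 13.47 and 12.11 in the MC-LR livers. These sums weigh bright genes most. Gene by gene, MC-LR 1 lay below all controls for 2 and MC-LR 3 for 5 of the 8 lymphocyte and neutrophil genes. Each did so for 3 of the 5 cholangiocyte genes. Over all genes, 26.9% lay below all controls in MC-LR 1, 25.6% in MC-LR 2 and 28.1% in MC-LR 3. The macrophage list (7 of 8 tested) was lowest in MC-LR 1, at 14.87. It read 15.58 in MC-LR 2, 15.42 in MC-LR 3 and 15.33 to 15.97 in controls. The smooth muscle and stellate list (12 of 12) read 15.78, 16.11 and 15.94 in MC-LR 1 to 3 and 15.99 to 16.17 in controls. Of the 7 macrophage genes, 6, 2 and 1 lay below all controls in MC-LR 1 to 3. For the 12 smooth muscle and stellate genes these counts were 6, 2 and 3, and for the 8 endothelial genes 4, 7 and 3. The endothelial list (8 of 8) lay at 14.35 to 14.98 in controls and 14.21 to 14.55 with MC-LR, the erythroid and platelet list (7 of 8) at 16.71 to 17.63 and 16.57 to 16.86, and the skeletal and heart muscle list (5 of 8) at 7.58 to 8.87 and 7.90 to 8.60. The summed level of the 32 members was 17.93 to 18.10 in controls, 17.75 in MC-LR 1, 17.94 in MC-LR 2 and 18.90 in MC-LR 3. The part of these cell types in the members' values was not tested.

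Over the 6 arrays, the genes with values most like those of Hspa1a, a member chosen for this after its values were seen, began with Rbm14 (r = 0.993), Stk4 (0.990) and Hspa1b (0.990), followed by P4ha1 (0.989) and Vhl (0.989). P4ha1, the catalytic subunit of collagen prolyl hydroxylase, read 7.09, 7.59 and 7.72 in the controls and 6.07, 7.32 and 9.20 in the MC-LR livers. Its lowest and highest livers were those of Hspa1a, over 3.13 against 7.31 on the log2 scale. Cacybp, which binds the calcyclin protein, ranked 7 in likeness and read 11.93, 12.24 and 12.31 in the controls and 11.58, 11.92 and 12.93 in the MC-LR livers. These likenesses rest on 6 arrays and are given as a description.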

How the data were processed

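Single-colour Agilent arrays of 6 livers were used. Groups and numbers came from the sample titles. The submitters' processing notes name Agilent Feature Extraction 10.7 as the source of the deposited spot intensity values. Background was already subtracted from the processed signal per the file headers, which give coordinates in mm9. Quantile-normalized log2 values were deposited by the authors as a table, per the design text. Against log2 of the matching array's processed signal, r of its columns was 0.9982 to 1 and each column's median was 5.94, so the table is on a log2 scale and not centred by gene. It chose each gene's probe and otherwise served as an alternative.

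Processed signals were floored at 1 and put on a log2 scale here, outlier-flagged spots were dropped, replicate spots were averaged, and quantile normalization of the 6 arrays used the 41174 non-control probes (30 had no value on some array). A gene, named as in the files, was its probe with the highest mean deposited value and was tested if that probe stood well above background in all 3 livers of at least 1 group. The members had 61 probes, 19 members had more than 1, and 31 used probes had an accession in the RefSeq table, all 31 under the same symbol. The test was two-sided lmFit and eBayes of limma 3.58.1 (R 4.3.3; residual degrees of freedom 4, prior 2.05), adjusted by Benjamini-Hochberg over the 18903 genes at a threshold of 0.05.

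The members and lists were chosen with earlier results of these data known. A member's 6 values are given if its unadjusted p was under 0.05, its groups did not overlap, its difference was among the 8 largest, or it is Hsf1, Hspa8, Hsp90ab1, Hspd1 or Hspe1. From each list of related chaperones, up to 3 genes with the smallest unadjusted p are named if that p was under 0.05. Of the endoplasmic reticulum chaperones, the gene with the lowest adjusted p is named, and the cold-induced genes are all named. No gene of the clock, immediate early or cell-type lists was named by its p. For the member with the smallest p, the 5 most correlated genes are named. Other names are marked as chosen after their values were seen. Alternatives were 75th percentile and median scaling, normexp correction (offset 50), the deposited values, a strict or no dim-probe filter, averaging the probes of a gene, testing each probe, RefSeq names, blocking by slide (fixed, then random), arrays of slide 2 alone, blocking by replicate number, the trend and robust options of eBayes, and each array left out. The replicate numbers were not treated as pairs in the main fit. Deviations from the group mean correlated at 0.186, −0.324 and −0.196 for same-numbered arrays and at −0.211 to 0.364 for the others. With 3 arrays a group these values cannot exclude a pairing. Data of the same 18903 genes were simulated in 5 runs with 200 changed genes each. Of log2 changes of 1, 41.9% were recovered, and of log2 changes of 2, 81.3%, with 5.86% and 7.29% of calls false. Each gene had the same SD in both groups, no slide effect was included, and the changed genes were drawn at random. These rates do not describe members with a wide or unequal spread, such as Hspa1a.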

Additional observations from a re-analysis of the deposited data

How the results depend on the processing

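The count of members past an adjusted p of 0.05 was 0 under the main setting and under every alternative run. By limma 3 genes in all passed, and 1 did with 75th percentile scaling, with median scaling, with normexp correction and with the strict filter, 5 without a filter, 15 with slide as a fixed block, and 0 on slide 2 alone (2305 at an unadjusted p under 0.05) and with the replicate number as a block (1839 at an unadjusted p). Leaving out 1 array gave 1 to 50 genes, 50 without control 3 and 1 without MC-LR 1. With the replicate block, 0 members had an unadjusted p under 0.05 by limma, against 1 without it. There were 2 with normexp correction and 2 with the mean of a gene's probes. With each probe tested, 3 of 59 member probes had one, from Dnajb4, Dnajb6 and Trap1. Median scaling moved the median of all genes from −0.008 to 0.026 and that of the related chaperones from 0.021 to 0.088. The members' median went from 0.039 to 0.144 with median scaling and to 0.109 with 75th percentile scaling. Among named members, Hsf1 became −0.034 and Hspa8 −0.011 with the mean of a gene's probes. With slide as a fixed block and on slide 2 alone, Hspa1a became −0.737 and Hspa8 −0.253, and with slide as a random block −0.076 and −0.087. Over the fits that leave out 1 array, Hspa1a ranged from −1.603 to 2.055, Hspa1b from −1.155 to 2.013, Bag3 from −0.495 to 0.838, Hspb1 from −0.486 to 1.584, Hspa8 from −0.272 to 0.327, Dnaja1 from −0.106 to 0.612, and Hspd1 from −0.028 to 0.294. In each of these the lowest value came without MC-LR 3. Without control 1, Hspa1a was −0.165 and Hspa8 −0.134. Hsp90ab1 ranged from −0.430 (without MC-LR 3) to 0.107 (without MC-LR 1). The causes of these changes were not tested. Trap1, Hspa9, Hspe1, Hspb6 and Dnajb6 kept their direction under every setting run, and none had an adjusted p under 0.05 in any of them (lowest 0.183, for Hspb6 with slide as a fixed block).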
